A study of Mus musculus with 6 samples.

Results

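The Src family kinases are membrane-bound tyrosine kinases, and the genes described here are Fyn, Src, Yes1, Lyn, Lck, Fgr and Blk of that family, the related epithelial kinase Frk, and Csk, the kinase that restrains them. They were taken by gene symbol, in the annotation of the array, from transcript clusters (the probe sets from which a gene's level is read) that carry a single symbol. Of the 9 named genes 7 were found, each with 1 transcript cluster, among 19938 genes with a symbol of their own. Lyn and Lck were not analysed here. The set was proposed with the array values of these same samples known, the fall of Fyn among them. The values below are therefore a description of how the family moved, and the p-values come from a fit across the whole array.

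RNA was taken from MLE-15, a mouse lung epithelial cell line derived from tumors that form when the large T antigen of simian virus is driven in the lung by the human Sftpc promoter. The 3 Nkx2-1 shRNA lines had received a lentiviral mix of hairpins against Nkx2-1 in the vector pLKO.1, and the 3 Empty vector control lines had received pLKO.1 without a hairpin by the labels, while the paper calls them the non-silencing control. Both groups carried the T antigen and had passed puromycin selection, the labels give 48 h for each sample, and the paper speaks of stable lines transduced independently. Each line was read on 1 Affymetrix Mouse Gene 1.0 ST array, and the question was which transcripts differ when Nkx2-1, a transcription factor of lung epithelium, is lowered. All lines come from 1 parental cell line, so the p-values measure the spread between transduced lines.

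Src family kinases pass signals from integrins, growth factor receptors and other surface proteins to adhesion, movement and growth. Each has a lipid-modified start that anchors it to membranes, protein-binding SH3 and SH2 domains, and a kinase domain followed by a tail with a regulatory tyrosine. Csk phosphorylates that tyrosine and folds the enzyme into its inactive form, and phosphatases that remove the phosphate let it open. Fyn, Src and Yes1 are found in most cell types, Lck mainly in T cells, Blk in B cells, and Fgr in myeloid cells. Much of the control lies in phosphorylation, which an RNA array does not measure.

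The deposited values are log2 levels after Robust Multi-Array Analysis, and a difference of 1 on this scale is a factor of 2 in signal. A level of 4.35, below which 95% of 1250 clusters for chemosensory receptors fall, served as the background limit. Array medians ran from 5.10 to 5.21, and correlations between arrays from 0.991 to 0.994 within groups and from 0.979 to 0.983 between groups. The targeted gene Nkx2-1 read 7.91, 7.98 and 7.83 in the knock-down lines and 8.61, 8.61 and 8.59 in the control lines, a log2 difference of -0.69 (SE 0.076, limma adjusted p = 0.00155). The groups did not overlap. An exact two-sided permutation test of that gene gave p = 0.1, the smallest that 3 lines against 3 allow. Of 11 epithelial markers 10 lay above the limit, and of 20 leukocyte markers 15, Ptprc among them, lay below it in both groups.

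The family did not move as 1 block. With limma and an adjusted p under 0.05 over all transcript clusters, Fyn was lower in the knock-down lines, Yes1 was higher, and the other 5 did not pass the test. Over all 19938 genes 10.7% were called higher and 9.88% lower by that rule. The knock-down and control values did not overlap for Fyn, Src, Yes1, Blk and Csk, which is 5 of 7 genes, against 40.2% of all genes. The median log2 difference of the 7 was 0.21, beside -0.01 over all genes. In these bulk samples fewer cells with a transcript and less of it per cell cannot be told apart. Since Fyn and Yes1 are the members that passed the test, stretches of both genes' promoters are shown here, on the + strand of GRCm38.p6. Each ends before the gene start that RefSeq annotates, and they are 194 bases long for Fyn and 250 for Yes1.
Fyn, chr10:39369549-39369742: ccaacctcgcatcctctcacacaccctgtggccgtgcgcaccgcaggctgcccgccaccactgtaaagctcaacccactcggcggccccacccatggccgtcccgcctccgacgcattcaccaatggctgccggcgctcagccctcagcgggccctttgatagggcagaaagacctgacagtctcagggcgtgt
Yes1, chr5:32610921-32611170: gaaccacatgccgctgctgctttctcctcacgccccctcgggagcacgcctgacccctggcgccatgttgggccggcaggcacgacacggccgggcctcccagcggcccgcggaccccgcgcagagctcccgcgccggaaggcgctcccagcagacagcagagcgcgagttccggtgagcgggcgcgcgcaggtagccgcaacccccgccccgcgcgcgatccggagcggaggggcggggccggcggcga

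Capitals would mark the core motif bound by NKX2-1, CAAG, or CTTG on the opposite strand, and neither stretch holds it. The full windows are 300 bases long, from 250 before to 50 after a start that each window sets. For Fyn this start lies past the RefSeq gene start, where the printed stretch was cut. The core was absent from the windows of Fyn, Yes1 and Src. It occurred 1 time for Fgr, 3 times for Frk and 3 times in each of the 2 windows of Csk. Of 32851 windows of that length 90.6% held it, with a median of 2 matches. The windows of Src, Yes1 and Fyn were 82.3%, 77.0% and 69.0% G and C, while the median of all windows was 52.7%. A match of so short a motif is a description of letters, Blk had no window among those searched, and binding was not measured on these arrays.

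**Figure D1:**
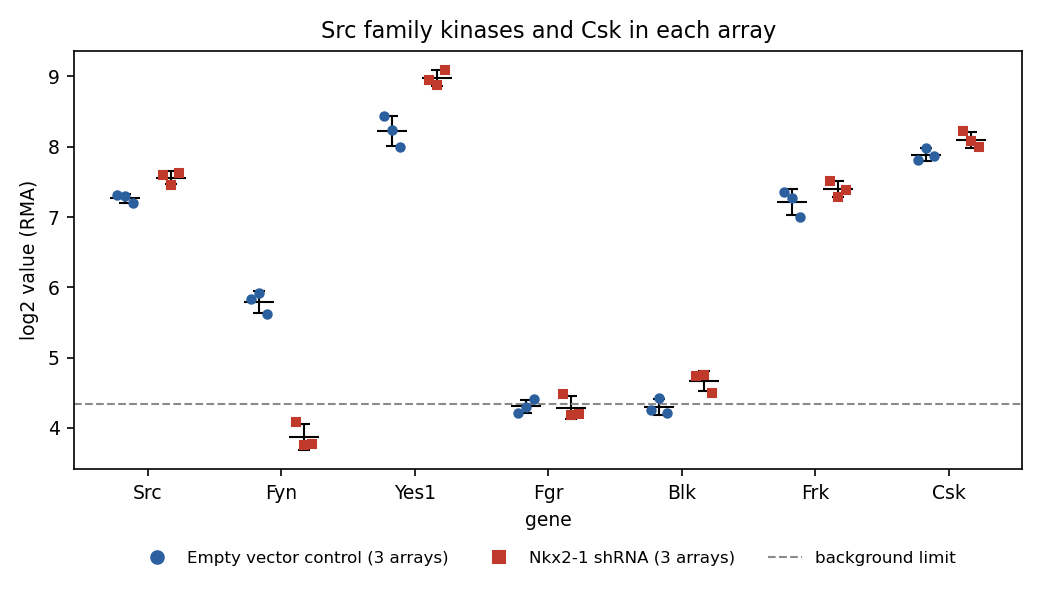
Log2 level of each Src family gene and Csk on each array (y axis), with the 3 Empty vector control and 3 Nkx2-1 shRNA arrays as points, the group mean and SD as bars, and the background limit of 4.35 as a dashed line. Fyn drops from above the limit to below it, Yes1 rises, and both means of Fgr lie below it.

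Fyn, a broadly expressed kinase that acts downstream of integrins and of receptors in immune and nerve cells, showed the largest difference of the family. The knock-down lines gave log2 levels of 4.08, 3.75 and 3.78, and the control lines 5.84, 5.92 and 5.61. Every knock-down value lay below the background limit and every control value above it. The group means were 3.87 ± 0.186 (SD, n = 3 lines) and 5.79 ± 0.16 (SD, n = 3 lines). The fitted log2 difference was -1.92 (SE 0.128, 95% interval -2.23 to -1.62, limma adjusted p = 0.000241). Because the knock-down signal was at background, the fall is given as a bound, at least 2.73-fold lower.

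The study lists Fyn among the predicted targets of miR-200c that fell on these arrays, by a stricter cutoff than the adjusted p under 0.05 used here. That list was chosen on these samples and so is no independent evidence of direction. Because Fyn is on it, the microRNA is printed, as RefSeq gives it for GRCm38.p6 (chr6:124718324-124718346, - strand). Bases 2 to 8, the seed that pairs with a target, are in capitals.
mmu-miR-200c-3p: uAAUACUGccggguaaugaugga

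The microRNA itself was not analysed here, and pairing with Fyn was not tested. By Pearson correlation over the 6 arrays, among 13570 genes above background in a group, the patterns most like that of Fyn were those of Dtna (r = 0.999), Usp17lb (r = 0.998) and Dennd3 (r = 0.998). In all 4 genes the groups lie apart, so the coefficients carry that gap and are a description only. Dtna, which encodes the cytoskeletal protein dystrobrevin alpha, ended below the limit like Fyn and was at least 1.69-fold lower (limma adjusted p = 0.000432). Usp17lb, a deubiquitinase gene, also ended below it and was at least 2.52-fold lower (limma adjusted p = 0.000157). Dennd3, a regulator of Rab GTPases, differed by -0.59 (limma adjusted p = 0.00282).

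Yes1, a close relative of Src that is also found in most cells, moved the other way. The knock-down lines gave log2 levels of 8.95, 8.88 and 9.09, and the control lines 8.43, 8.24 and 8.00. The lowest knock-down line lay above the highest control line, although the control lines were the most widely spread of any member, with an SD of 0.219. The difference was 0.75 (SE 0.128, 95% interval 0.45 to 1.06, limma adjusted p = 0.00894), which is 169% of the control signal. It ranked 787 of 19938 genes by size of rise, so many genes rose more than Yes1. The call was lost with the methods' two-sample test (adjusted p = 0.0518) and with unequal variances (adjusted p = 0.113).

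Src, the founding member and a kinase of focal adhesions, had log2 levels of 7.60, 7.45 and 7.62 in the knock-down lines and 7.31, 7.29 and 7.19 in the control lines. The groups did not overlap. The difference was 0.29 (SE 0.0847, 95% interval 0.09 to 0.49), or 122% of the control signal, and with a limma adjusted p of 0.0600 it did not pass the test. Of 16 alternative settings 6 called it higher, with adjusted p from 0.0277 to 0.185 over all of them. Src thus lay at the threshold, on the same side of 0 as Yes1 in every setting.

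Frk, a kinase of epithelial cells related to the Src family, had log2 levels of 7.51, 7.28 and 7.38 in the knock-down lines and 7.35, 7.28 and 7.003 in the control lines. The groups overlapped. The difference was 0.18 (SE 0.117, 95% interval -0.10 to 0.46, limma adjusted p = 0.372).

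The kinases known from blood cells read near background. Fgr had log2 levels of 4.48, 4.19 and 4.20 in the knock-down lines and 4.22, 4.30 and 4.41 in the control lines, which overlap. Both means, 4.29 and 4.31, lay below the limit, and the difference was -0.02 (SE 0.108, 95% interval -0.28 to 0.24, limma adjusted p = 0.943). Its sign turned under other scalings, as it did with single lines left out. Blk had log2 levels of 4.74, 4.75 and 4.50 in the knock-down lines and 4.26, 4.42 and 4.22 in the control lines. The groups did not overlap, and the control mean of 4.30 was not above the limit. Against that limit Blk was at least 1.23-fold higher, but with a limma adjusted p of 0.0580 it did not pass the test, and 5 of 16 alternatives called it.

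Markers of leukocytes bear on these kinases, since blood cells are where both are best known. Of 20 leukocyte markers 1 passed the test, Csf1r, a receptor of macrophages that was called higher with both group means below the limit (limma adjusted p = 0.00905). None was called lower by limma, by the methods' test or with unequal variances, and 0 were lower at an unadjusted p under 0.05. The summed signal of the list was 395 to 415 in the knock-down lines and 379 to 433 in the control lines. The 5 markers above the limit in a group were Cd3e, Cd8a, Cd79b, Cd68 and Coro1a.

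Csk, which phosphorylates the regulatory tail of the Src family, had log2 levels of 8.22, 8.07 and 7.99 in the knock-down lines and 7.81, 7.98 and 7.87 in the control lines. The lowest knock-down line, at 7.99, was just above the highest control line, at 7.98. The difference was 0.21 (SE 0.0941, 95% interval -0.02 to 0.43), or 115% of the control signal, and it did not pass the test (limma adjusted p = 0.201). No alternative called Csk, Frk or Fgr.

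**Figure D2:**
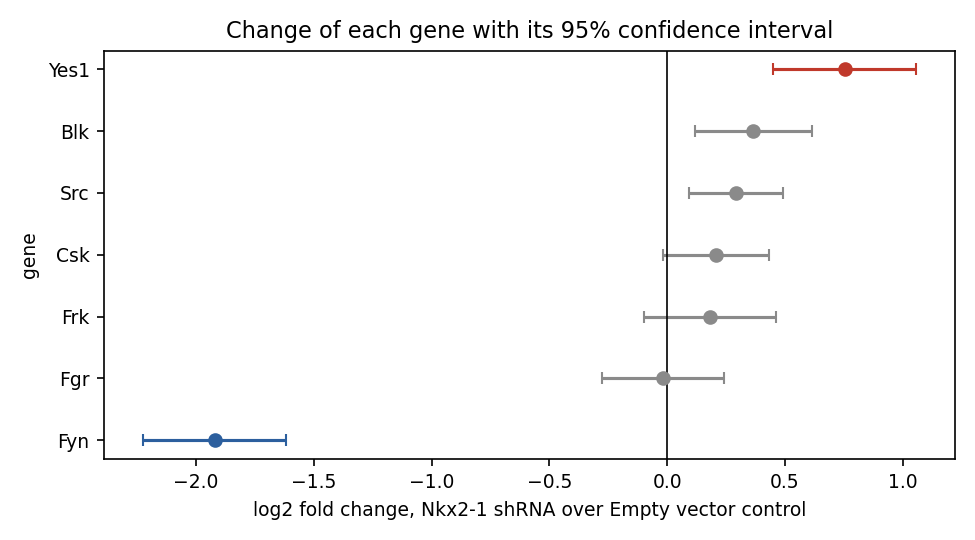
Log2 fold change of the Nkx2-1 shRNA over the Empty vector control lines (x axis) for each Src family gene and Csk, with 95% intervals from limma, in red for the gene called higher, blue for the gene called lower and grey for the others. The intervals of Fyn, Yes1, Src and Blk lie to 1 side of 0, and those of Fgr, Frk and Csk cross it.

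The balance between family members within each line was read from ratios of their signals on the same array. The probes of different genes differ in brightness, so each ratio is given relative to its control mean and says how the balance shifted, not which kinase was more abundant. In all 6 pairs were compared by exact tests, whose smallest p for 3 lines against 3 is 0.1, so none could pass a threshold of 0.05.

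The log2 ratio of Yes1 over Csk was 0.40, 0.47 and 0.77 above the control mean in the knock-down lines, while the control lines lay at 0.29, -0.08 and -0.21. The ratio was thus higher in every knock-down line than in any control line. The shift was 0.55 (SE 0.189), or 1.46-fold (exact two-sided permutation test, p = 0.1, adjusted p = 0.12). Src over Yes1 shifted by -0.46 (SE 0.0995), or 1.38-fold toward Yes1, with the same exact p and with no overlap. Src over Csk read 0.003, -0.003 and 0.26 in the knock-down lines and 0.13, -0.07 and -0.06 in the control lines. Those groups overlapped, and the shift was 0.09 (SE 0.106, exact two-sided permutation test, p = 0.5, adjusted p = 0.5).

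The 3 ratios with Fyn shifted by -2.21 against Src, -2.67 against Yes1 and -2.13 against Csk on the log2 scale. In each the groups did not overlap, with an exact two-sided permutation p of 0.1. Fyn was at background in the knock-down lines, so the sizes of these shifts depend on a signal that was not above the limit.

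**Figure D3:**
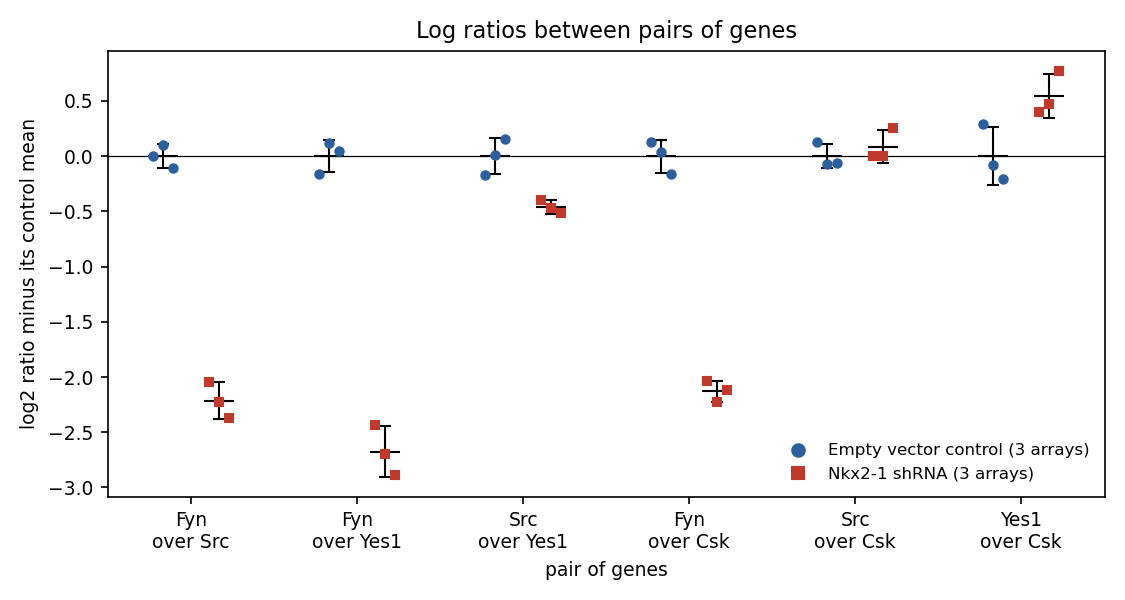
Log2 ratio between pairs of genes on the same array, minus the mean of the control arrays (y axis), for 6 pairs, with arrays as points and group mean and SD as bars. The 3 ratios with Fyn lie far below 0 in the knock-down lines, Yes1 over Csk lies above the controls, and Src over Csk overlaps them.

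Genes that act with the Src family were read from fixed lists, which hold 99 measured genes together besides the members. Of these 22 (22.2%) were higher, 6 (6.06%) were lower and 71 did not pass the test, with a median log2 difference of 0.08. When each array was centred on its median 30 were higher and 2 lower. Beside them stand the shares over all genes, 10.7% higher and 9.88% lower. Most listed genes lay above the background limit in a group, while the 19938 genes include many below it. The shares were not matched for level. Receptors and membrane partners held the most calls.

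Of 20 receptors and membrane partners 9 were higher, 2 were lower and 9 did not pass, with a median of 0.24. Cd36, a scavenger receptor that signals through Fyn, Lyn and Yes1, had log2 levels of 4.38, 4.07 and 4.31 in the knock-down lines and 7.12, 6.87 and 6.52 in the control lines. Cd36 ended at background, at least 5.58-fold lower (limma adjusted p = 0.000221). Cav1, the caveolar coat protein that is a classical Src substrate, had log2 levels of 6.58, 6.44 and 6.56 in the knock-down lines and 4.45, 4.68 and 4.10 in the control lines. Cav1 differed by 2.11 (SE 0.15, limma adjusted p = 0.000313), in the opposite direction to Cd36. Its control mean, 4.41, was just above the background limit, and control line 3 lay below it. The size of the rise of Cav1 thus depends on a control signal near background. Plaur, the urokinase receptor, rose by 1.23 (limma adjusted p = 0.000797). Met, the receptor of hepatocyte growth factor, rose from 9.30 to 10.33 (limma adjusted p = 0.00166). The integrin subunits Itgb1 and Itgb4, the receptor kinases Erbb2, Epha2 and Ephb4, and Csf1r were also called higher, and the mucin Muc1 was called lower.

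Of 29 substrates and adaptors 6 were higher, 3 were lower and 20 did not pass, with a median of 0.15. The adhesion proteins Tns1 and Tns3, tensins that link integrins to actin, rose by 1.15 (limma adjusted p = 0.000427) and 1.02 (limma adjusted p = 0.000507). Tns1 has 6 transcript clusters, which ranged in log2 difference from -0.11 to 1.18, and the value given is that of the brightest. Eps8, an actin regulator and receptor kinase substrate, rose by 0.95 (limma adjusted p = 0.000753). Vav3, an exchange factor for small GTPases, fell by 0.56 (limma adjusted p = 0.0357), a call lost with the methods' test, with unequal variances and with median centring. Neither alternative test called any substrate lower. Afap1, Sh3pxd2a and Pxn, actin and adhesion scaffolds phosphorylated by Src, were also higher, and the catenin Ctnnd1 and the adaptor Gab1 were lower.

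Counts for the proteins that set Src activity are set beside the same shares over all genes, 10.7% higher and 9.88% lower. These lists are short, and no difference from those shares was tested. Of 11 tyrosine phosphatases 2 were higher and 9 did not pass, with a median of 0.17. Ptpn12, which dephosphorylates adhesion proteins, rose from 8.20 to 9.03 (limma adjusted p = 0.000908). Ptpn2 rose by 0.38 (limma adjusted p = 0.0244) in its brighter transcript cluster, while the other differed by -0.21. With the mean of its clusters Ptpn2 differed by 0.08 and lost its call (limma adjusted p = 0.608). No phosphatase was called lower by limma, the methods' test or the test for unequal variances, and 1 was lower at an unadjusted p under 0.05. Of 16 genes that recruit Csk or otherwise restrain the family 1 was higher and 1 lower, with a median of 0.005. Socs6, a ubiquitin ligase adaptor, rose from 8.08 to 8.88 (limma adjusted p = 0.00131), and the docking protein Dok3 fell by 0.38 (limma adjusted p = 0.0303). The Dok3 call was lost with the methods' test, unequal variances, median centring and repeated quantile normalization, and with most single lines left out.

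Of 19 other cytoplasmic tyrosine kinases 3 were higher and 16 did not pass, with a median of 0.06. Ptk2b, a calcium-responsive relative of focal adhesion kinase that partners with Src, had log2 levels of 7.73, 7.61 and 7.71 in the knock-down lines and 6.71, 6.64 and 6.53 in the control lines. The groups lay apart by far more than their spread, with a difference of 1.06 (SE 0.0838, limma adjusted p = 0.00045). Fer, a kinase of cell junctions, rose by 0.66 (limma adjusted p = 0.00893), and Tec by 0.32 (limma adjusted p = 0.0338). None was called lower by limma or by either alternative test, and 2 were lower at an unadjusted p under 0.05. Of 4 enzymes of N-myristoylation, which prepare and modify the start of these kinases, Nmt2, a myristoyl transferase, was the 1 called and rose by 0.48 (limma adjusted p = 0.0433). That call was lost with the methods' test and with unequal variances, which called no gene of the list in either direction. None was lower by limma, nor at an unadjusted p under 0.05.

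**Figure D4:**
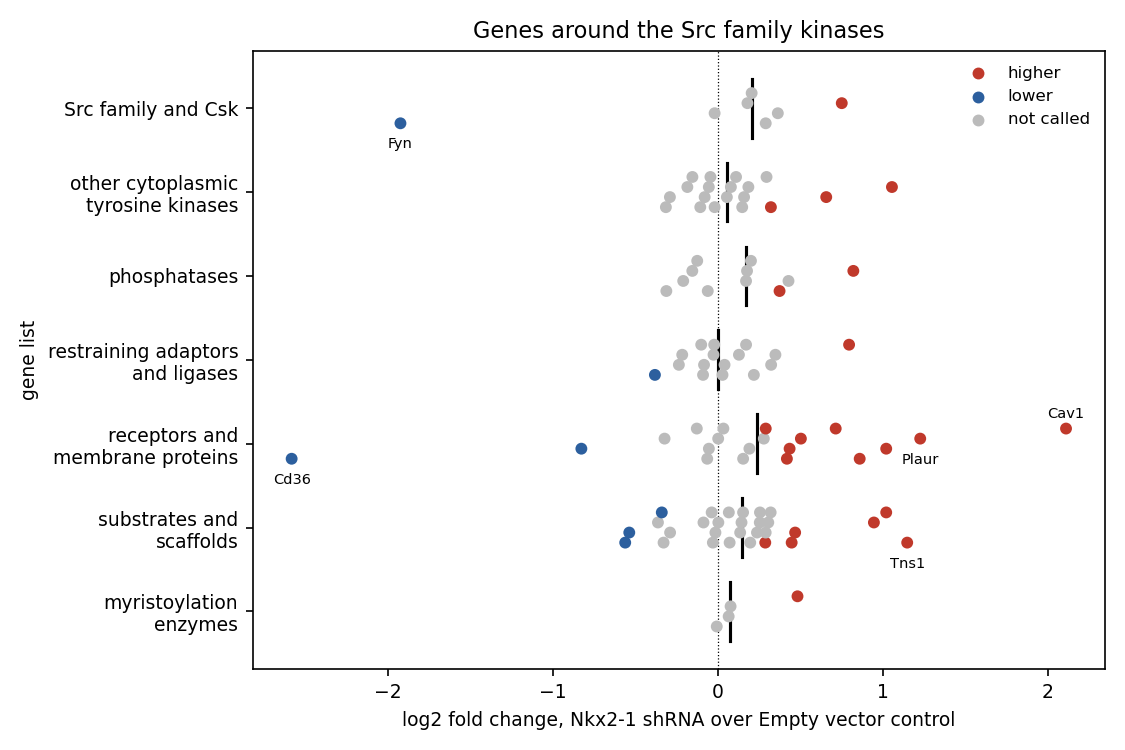
Log2 fold change of the Nkx2-1 shRNA over the Empty vector control lines (x axis) for every measured gene of the family and of 6 fixed lists (y axis), with 1 point per gene coloured by its call and the median of each list as a vertical bar. Receptors and membrane proteins spread the widest, from Cd36 at -2.58 to Cav1 at 2.11, and the medians of the 6 lists lie between 0.005 and 0.24.

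The members were also set beside their neighbours on the chromosome, as the 10 nearest genes above background on each side in RefSeq order. The 20 neighbours of Yes1 on chromosome 5 had a median log2 difference of 0.39, with 10 called higher, 1 called lower and 2 below 0. Yes1, at 0.75, lay within their range of -0.41 to 0.88. The neighbours of Fyn on chromosome 10 had a median of -0.23, with 1 called higher and 7 lower. Fyn, at -1.92, lay below all of them, the lowest neighbour being at -1.28.

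Frk lies near Fyn on chromosome 10, with 4 genes above background between them, and the neighbour sets overlap. The neighbours of Frk, Fyn included, also had a median of -0.23, and 18 of 20 were below 0, while Frk itself differed by 0.18. The medians of the other neighbour sets were -0.10 for Src, 0.06 for Fgr, -0.01 for Blk and -0.002 for Csk. The part of chromosomal position in the values of Yes1 and Fyn was not tested.

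**Figure D5:**
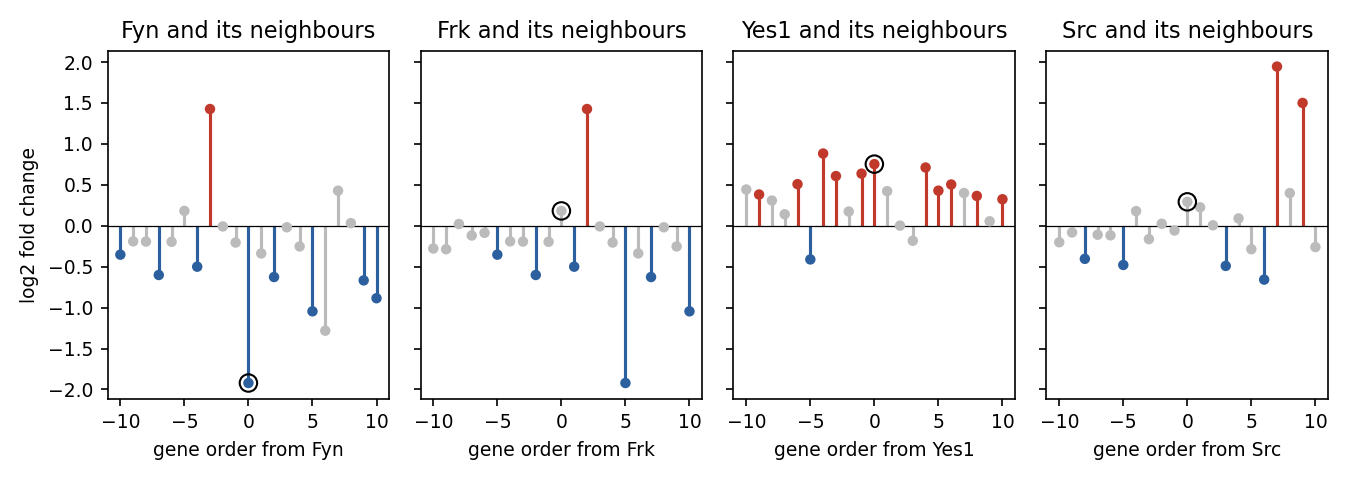
Log2 fold change of the Nkx2-1 shRNA over the Empty vector control lines (y axis) for Fyn, Frk, Yes1 and Src, each circled, and for the 10 genes above background on each side, in chromosomal order (x axis), with genes called higher in red, lower in blue and not called in grey. Yes1 stands among mostly raised neighbours, and Fyn lies below all of its own and is also a neighbour of Frk.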

How the data were processed

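Arrays of 3 Nkx2-1 shRNA and 3 Empty vector control lines were used. The authors summarized them by RMA (background correction, quantile normalization, probe summary) in Affymetrix Expression Console 1.1, and the deposited values are log2 levels. RMA compresses differences of dim genes. The table holds 35557 transcript clusters, 21789 with a single gene symbol, 1621 with more than 1 symbol and 12147 with no symbol. For the 999 genes with several clusters, the one with the highest mean was used.

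The fit of group means used limma 3.58.1 under R 4.3.3, with lmFit, eBayes, no block and 4 residual degrees of freedom. P-values were adjusted by Benjamini-Hochberg across the whole table, and a call needed an adjusted p under 0.05. The fit was tested on simulated data. Ratios were compared by exact permutation tests. The number of lines sets the precision, as arrays hold no read counts.

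The members and lists were chosen with earlier results of these data known. The rule named all members, Nkx2-1, a gene not reported here, up to 4 genes per list with the largest called difference, and the 3 genes most like Fyn. Sensitivity alternatives changed the test, prior, weights, scaling, filter, block, clusters, background limit, neighbour number and lines used.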

Additional observations from a re-analysis of the deposited data

How the results depend on the processing

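Fyn was called lower in all 16 alternative settings, with log2 differences from -2.03 to -1.84, and Yes1 was higher in 14 of 16. The number of members called higher, 1 as reported, was 0 with the methods' t-test and with unequal variances. It was 2 with a trended and robust prior and with array weights. It was 3 with repeated quantile normalization, with median centring, among transcript clusters above background and among those with 1 gene symbol; the cause was not tested. With single lines left out it ran from 1 to 2, the 2 being Yes1 and Blk without Nkx2-1 shRNA replicate 3, and the number called lower stayed at 1. Fgr, not called in any setting, turned to 0.0293 with array weights, 0.0311 with quantile normalization and 0.0626 with median centring, and ran from -0.11 to 0.0332 with single lines left out. Of the listed genes, 6 lower as reported, 2 were lower with the methods' t-test, unequal variances and median centring, and 12 among clusters with 1 symbol. Higher, 22 as reported, were 11 with unequal variances and 30 with median centring. With single lines left out 2 to 6 were lower and 15 to 19 higher. Over all transcript clusters 2705 were higher and 3284 lower; the methods' t-test gave 1983 lower, unequal variances 832 and 760, median centring 3484 and 2376, which turns the balance toward higher calls, and single lines left out 1690 to 2225 higher and 1815 to 2750 lower, the fewest without Nkx2-1 shRNA replicate 1. Nkx2-1 at -0.69 lost its call with unequal variances (adjusted p = 0.055).

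Replicate numbers did not pair the lines, with correlations of 0.058, 0.136 and -0.034 between same-numbered lines. Under a replicate block 1 member was higher and 1 lower, Fyn at -1.92 (adjusted p = 0.00343) and Yes1 at 0.75 (adjusted p = 0.0329), with 17 listed genes higher and 4 lower and 2269 and 2775 transcript clusters, and the calls of Tec, Ptpn2, Vav3, Nmt2 and Foxa2 were lost. With unequal variances the calls of Cav1, Plaur, Fer, Tec, Ptpn2 and Csf1r were lost as well. When single lines were left out, Tec lost its call each time. Dok3, Ptpn2, Nmt2 and Foxa2 kept theirs only without Empty vector control replicate 1, and Vav3 only without Empty vector control replicate 3. Krt7 kept its call only without Nkx2-1 shRNA replicate 3 and without Empty vector control replicate 2. At the 90th percentile the background limit was 3.97, which puts the means of Fgr and Blk above it in both groups. The knock-down mean of Fyn, 3.87, was still below it, but the first knock-down line, at 4.08, was above it. With 5 neighbours on each side the medians were -0.0262 for Src, -0.20 for Blk and 0.16 for Csk, and with 20 they were 0.30 for Yes1 and 0.10 for Csk. Among single genes 411 values kept their side of the threshold and their direction, 66 were weaker, 11 stronger and 6 reversed. Median centring moved the median of all genes from -0.01 to 0.07. The planned ratio of Lyn to Csk was not run, since Lyn was not analysed here.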

Other observations

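The cell type markers moved in the same lines as the Src family genes. Of 11 epithelial markers 6 were higher by limma, 5 by the methods' t-test and 3 with unequal variances. None was lower by any of them, with 1 lower at an unadjusted p under 0.05. Krt7 lost its call in both alternative tests, as did Foxa2, and Krt19 and Napsa with unequal variances. The tight junction gene Cldn4 rose by 1.74 (limma adjusted p = 0.000611), the desmosomal gene Dsp by 1.24 (limma adjusted p = 0.00165), and the keratin genes Krt19 and Krt7 by 1.19 (limma adjusted p = 0.00291) and 0.70 (limma adjusted p = 0.0223). Summed signal of the list was 13900 to 15400 in the knock-down lines and 10500 to 10800 in the control lines. Of 12 alveolar type II markers 9 were above background in a group, 2 were higher and 5 lower, Nkx2-1 among them. Sftpc, the surfactant protein that defines the cell type, went from 7.73 to 4.08, below the limit in the knock-down lines and at least 10.4-fold lower (limma adjusted p = 0.000195). The other surfactant protein genes did not all follow it. Sftpa1 differed by -0.41 (limma adjusted p = 0.0144) and Sftpd by 0.44 (limma adjusted p = 0.0349). Sftpb, at 11.69 in the control lines and 11.83 in the knock-down lines, did not pass the test (limma adjusted p = 0.249). The aspartic protease gene Napsa rose by 0.58 (limma adjusted p = 0.0085) and the transcription factor gene Foxa2 fell by 0.44 (limma adjusted p = 0.0375). Summed signal of that list was 4820 to 5060 in the knock-down lines and 4950 to 5130 in the control lines. Such sums weigh the brightest genes most, here Sftpb, and so do not show the fall of Sftpc. The part of these markers in the values of Fyn and Yes1 was not tested.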
